A study of Mus musculus with 8 samples.

Results

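The genes described here encode integrins, laminins and collagens, taken by symbol from the read count table: integrin subunit genes numbered as Itga or Itgb with Itgav and Itgae, laminin alpha, beta and gamma chains, and collagen chains with a single-digit chain number. The genes reported are 34 (15 integrins, 6 laminins and 13 collagens) of 13420. Reads were enough for a test in 10 of the 34 (Itga3, Itgb1, Itgb4, Lama5, Lamb2, Lamb3, Lamc1, Col4a1, Col4a2 and Col18a1), and 5 of these 10 (Lamb2, Lamc1, Col4a1, Col4a2 and Col18a1) reached the required level in cancer libraries only. Such genes had to differ between WT and cancer cells to be tested at all, so a count over the 10 is given as a description and not as support.

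Mouse small intestine organoids, which are spheres of epithelium grown from stem cells in a basement membrane gel, were cultured pure or mixed, and the study asked what changes in each population when WT and cancer cells share a culture. WT cells were C57BL/6 carrying the mTmG reporter, which the study's methods give as organoids of adult Rosa26-CreERT2::mT/mG animals of both sexes (C57BL/6J). Cancer cells, of strain C57BL/6 (F6), carried Villin-CreERT2, Apc fl/fl and Tr53 fl/R172H among their alleles, with the Cre driven by the promoter of villin, a protein of intestinal epithelial cells, and the methods describe the induced animals as adult C57BL/6J males. Mixed cultures were set up from 2 parts WT and 1 part cancer cells, and after 3 days live cells were sorted by mTomato (WT) or Dendra2 (cancer), from pure and mixed cultures alike. This gave 4 groups of 2 libraries each: pure WT (A01 and A05), mixed WT (A02 and A06), pure cancer (A03 and A07) and mixed cancer (A04 and A08). The number of animals or lines behind a group is not given in the sources used here, so p-values measure the spread between these libraries, and genotype cannot be told apart from other differences between the WT and cancer lines.

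Integrins are paired alpha and beta receptors that hold cells to the extracellular matrix. Epithelial cells sit on a basement membrane, a sheet built of a laminin network and a collagen IV network and rich in collagen XVIII. A laminin is a trimer of an alpha, a beta and a gamma chain, and integrins alpha3 beta1 and alpha6 beta4 are laminin receptors. In the intestine much of the collagen IV of the basement membrane is made by the mesenchyme under the epithelium, a tissue that organoids lack. The gel in which the organoids grow is itself a laminin and collagen IV extract, which supplies protein and no mRNA.

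Col4a1 and Col4a2, the collagen IV chain genes whose reads were nearly all in cancer libraries, lie head to head. Their promoter windows, 300 bases around each transcription start from RefSeq on build GRCm38.p6, are printed 5′ to 3′ on each gene's own strand. The Col4a1 window is chr8:11312777-11313076 on the minus strand with the start at 11312826, and the Col4a2 window is chr8:11312555-11312854 on the plus strand with the start at 11312805. Capitals mark the 78 bases, chr8:11312777-11312854, that both windows hold, once on each strand.
Col4a1: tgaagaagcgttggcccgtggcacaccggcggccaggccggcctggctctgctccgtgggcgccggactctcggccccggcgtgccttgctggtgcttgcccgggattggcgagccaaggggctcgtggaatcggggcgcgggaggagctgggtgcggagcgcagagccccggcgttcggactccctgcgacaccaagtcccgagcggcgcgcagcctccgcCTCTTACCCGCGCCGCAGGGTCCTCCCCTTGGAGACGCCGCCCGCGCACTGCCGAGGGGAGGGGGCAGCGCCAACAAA
Col4a2: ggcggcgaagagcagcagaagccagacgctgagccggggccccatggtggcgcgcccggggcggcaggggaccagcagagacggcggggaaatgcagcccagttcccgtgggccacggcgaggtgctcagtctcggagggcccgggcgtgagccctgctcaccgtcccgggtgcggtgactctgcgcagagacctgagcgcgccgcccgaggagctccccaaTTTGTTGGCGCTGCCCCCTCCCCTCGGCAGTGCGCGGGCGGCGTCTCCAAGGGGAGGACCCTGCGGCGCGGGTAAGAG
The first 22 transcribed bases of each gene overlap, so reads from the 5′ ends could not be told apart without strand, but CEL-Seq reads come from the 3′ ends, which lie on opposite sides of the pair.

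Itga3 was the integrin gene that passed the test of cancer against WT cells, and its outermost window, chr11:95076665-95076964 on the minus strand of GRCm38.p6, is shown with its 3 copies of the GC box GGGCGG in capitals.
Itga3: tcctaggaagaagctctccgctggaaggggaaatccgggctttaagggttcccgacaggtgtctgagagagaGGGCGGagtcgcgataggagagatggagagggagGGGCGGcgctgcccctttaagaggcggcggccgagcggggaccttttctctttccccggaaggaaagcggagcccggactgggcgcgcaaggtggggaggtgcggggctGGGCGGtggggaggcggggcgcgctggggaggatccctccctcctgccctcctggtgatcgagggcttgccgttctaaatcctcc
Windows were found for 8 of the 10 tested genes (none was taken for Itgb4 or Lamc1), and 3 of the 8, Itga3 among them, have several. A GC box on either strand was in 7 of their 11 windows (63.6%, in Itga3, Itgb1, Lama5, Col4a1, Col4a2 and Col18a1), against 35.7% of all 32851 windows. The CCAAT box (CCAAT on either strand) was in 4 of the 11 (36.4%, in Itga3, Col4a1, Col4a2 and Col18a1), against 37.4% of all windows. The AP-1 motif TGANTCA, which reads the same on both strands, was in 1 of the 11 (9.09%), a further Itga3 window not printed here, against 7.81% of all windows. The 11 windows are not all separate, since those of Col4a1 and Col4a2 share 78 bases that hold a GC box. These are matches of letters and no binding was measured.

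The libraries held between 73109 (A02) and 4733121 (A04) reads on genes. In A02 a single read is worth 13.1 CPM (normalized read counts scaled to a common library size by edgeR's trimmed mean of M values), and the 34 genes had 6 reads there in all, against 68 to 3358 in the other libraries. A value of 0 in A02 therefore allows a level of up to 39.3 CPM (3 reads), and some of the results that rest on A02, not all, are also given without it. All 10 epithelial markers examined were detected in every WT library and 7 to 10 of them in a cancer library, and their summed level was 4781 to 7032 CPM in 7 libraries and 16348 CPM in A06. The sum hides differences between WT and cancer cells: Cdx1, an intestinal transcription factor, had 302, 477, 1 and 56 reads in WT libraries A01, A05, A02 and A06 and 4 reads in all in the cancer libraries, every one in A04. The part of such differences in the results was not tested. Of 10 fibroblast and smooth muscle markers, 2 (Vim and Acta2) were analysed, with 0 to 13 reads per library in all. Of 8 immune markers only Csf1r was analysed, with 0 to 2 reads. Apc and Trp53 were read too far from the altered parts of these genes, at their 3′ ends, to check the genotypes. In sorted bulk cells, fewer cells of a type and less RNA per cell cannot be told apart.

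**Figure D1:**
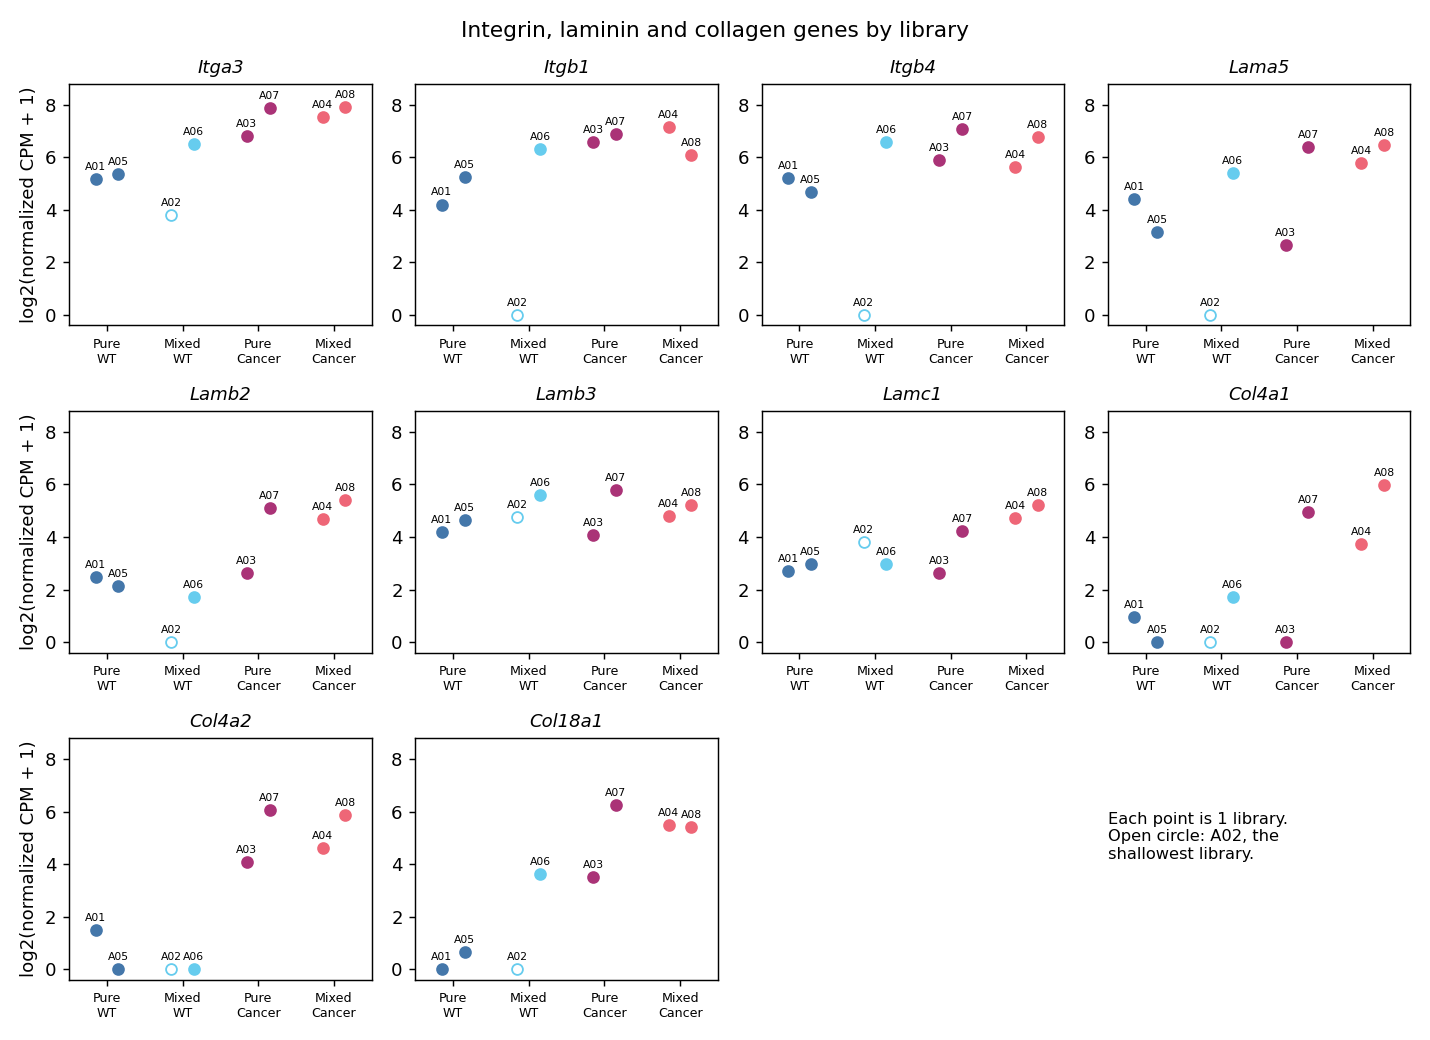
Level of each of the 10 tested genes in every library, as log2(normalized CPM + 1), grouped by culture and cell type. Each point is a library and the open circle is A02, the shallowest. For Itga3, Lamb2 and Col4a2 all 4 cancer libraries lie above all 4 WT libraries, and for Itgb1 and Itgb4 the mixed WT library A06 lies among the cancer libraries.

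In cancer against WT cells, averaged over pure and mixed cultures, Itga3, Lamb2, Col4a1, Col4a2 and Col18a1 were higher in cancer cells, 5 of the 10 genes tested (adjusted p under 0.05 by the quasi-likelihood test of edgeR, with Benjamini-Hochberg adjustment over 5264 genes). Among all tested genes 14.2% passed in either direction and 6.8% passed as higher in cancer cells. The median log2 fold change was 1.73 over the 10 genes, also with Col4a2 set to its pooled ratio, and 0.04 over all genes tested. Cancer and WT libraries did not overlap, with cancer higher, for 3 of the 10, against 8.24% of all genes tested. Leaving out the pure cancer library A07 left 2 calls, Itga3 and Col4a2.

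Of the integrins, Itga3 (alpha3, chromosome 11, 95044474 to 95076801, minus strand, GRCm38) was raised in cancer cells. It stood at 34.8 and 40.5 CPM in the pure WT libraries A01 and A05 and at 13.1 and 90.6 CPM in the mixed WT libraries A02 and A06. The cancer libraries held 110.2 and 230.5 CPM in pure culture (A03 and A07) and 184 and 239 CPM in mixed culture (A04 and A08). All 4 cancer values were above all 4 WT values, although A06 came close to A03, and the 13.1 CPM of A02 is 1 read. The log2 fold change was 1.94 (SE 0.433, adjusted p = 0.00236), and the call held in all 15 alternative settings.

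Itgb1 (beta1, the partner of alpha3 and of many other alpha subunits; chromosome 8, 128685654 to 128733200, plus strand) did not pass. Its levels were 17.4 and 37.1 CPM in pure WT, 0 and 79.3 CPM in mixed WT, 94.5 and 117 CPM in pure cancer and 142 and 67.4 CPM in mixed cancer libraries, in the library order given for Itga3. With A06 above A08, its log2 fold change was 1.49 (SE 0.524, adjusted p = 0.0605). Barcode counts and transcript counts, the other deposited tables, both called it, as did DESeq2 size factors, the fit without a filter, and the fits without A03, A05, A06 or A08. Without A06 the log2 fold change was 6.01, but mixed WT is then A02 alone, with no read, and the fitted value is no bound.

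Itgb4 (beta4, the hemidesmosome integrin that pairs with alpha6; chromosome 11, 115974709 to 116008412, plus strand) had 35.7 and 24.7 CPM in pure WT, 0 and 95.2 CPM in mixed WT, 57.7 and 135 CPM in pure cancer and 47.9 and 109 CPM in mixed cancer libraries. The groups overlapped through A06, and the log2 fold change of 0.97 (SE 0.549) did not pass (adjusted p = 0.298). Without A06 it was 5.60 and passed (adjusted p = 0.0158), but mixed WT is then A02 alone, with no read, and the fitted value is no bound.

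Among the laminins, Lamb2 (beta2; chromosome 9, 108479736 to 108490530, plus strand) was low in WT cells, at 4.58 and 3.37 CPM in pure and 0 and 2.27 CPM in mixed libraries. Cancer libraries had 5.25 and 32.9 CPM in pure and 24.5 and 41.5 CPM in mixed culture. All cancer values were above all WT values, but the lowest of them, in A03, is a single read. With a log2 fold change of 3.17 (SE 0.955, adjusted p = 0.0251) the gene passed, and this call was lost in 7 of 14 alternatives, 6 of them with a single library left out (A01, A04, A05, A06, A07 or A08) and the other without A02 and A04, with adjusted p up to 0.454.

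Lama5 (alpha5, the main laminin alpha chain under adult epithelium; chromosome 2, 180176373 to 180225859, minus strand) had 20.1, 7.87, 0 and 40.8 CPM in WT libraries A01, A05, A02 and A06, and 5.25, 83.8, 54.0 and 88.2 CPM in cancer libraries A03, A07, A04 and A08. The single read of A03 placed it under 3 WT libraries. Its log2 fold change of 1.52 (SE 0.659) did not pass (adjusted p = 0.145), and turned to -0.13 without A07. It passed as higher in cancer cells with barcode counts (adjusted p = 0.0284), with transcript counts (0.0443), without A03 (1.88, adjusted p = 0.0102) and without A06 (5.60, adjusted p = 0.0459, again with no read left in mixed WT). Lamc1 (gamma1, shared by most laminins; chromosome 1, 153218922 to 153332786, minus strand) ranged from 5.49 to 13.1 CPM in WT and from 5.25 to 36.3 CPM in cancer libraries, with a log2 fold change of 1.43 (SE 0.817, adjusted p = 0.305). The beta3 chain gene Lamb3, a laminin gene of epithelia (chromosome 1, 193207699 to 193343878, plus strand), was at 17.4 to 47.6 CPM in WT and 15.7 to 53.9 CPM in cancer libraries. Its log2 fold change was 0.19 with a 95% interval from -1.01 to 1.39 (adjusted p = 0.886).

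Of the collagen IV genes, Col4a2 (chromosome 8, 11312805 to 11449287, plus strand) had 2 reads in A01 (1.83 CPM) and none in the other 3 WT libraries. Its cancer levels were 15.7 and 65.8 CPM in pure and 23.5 and 57.1 CPM in mixed libraries, all above every WT library. Over all libraries this was 156 reads against 2, a ratio of pooled CPM of 45.4 (95% counting interval 12.3 to 378, which covers counting error only). Of the 156 reads 120 were in A04, and without A02 and A04 the ratio was 83.1 (interval 21.4 to 713). The fitted log2 fold change was 7.03 (SE 1.34, adjusted p = 0.000522), a value that depends on the small count edgeR adds because mixed WT had no read.

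Col4a1 (chromosome 8, 11198423 to 11312826, minus strand), the other chain of the common collagen IV trimer, had 1 read in A01 and 1 in A06 among the WT libraries. It had no read in A03, 29.9 CPM in A07, 12.3 CPM in A04 and 62.2 CPM in A08. Its pooled ratio was 24.7 (85 reads against 2, interval 6.64 to 207), or 50.8 (12.5 to 446) without A02 and A04, and its log2 fold change was 4.59 (SE 1.26, adjusted p = 0.0134). Leaving out A05, A06, A07 or A08 ended this call, with adjusted p up to 0.988. The last bases of Col4a1 overlap Gm15418 on the other strand.

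Col18a1 (chromosome 10, 77052178 to 77166548, minus strand) encodes the chain of collagen XVIII, a basement membrane proteoglycan. It was at 0 and 0.562 CPM in pure WT, 0 and 11.3 CPM in mixed WT, 10.5 and 74.8 CPM in pure cancer and 44.2 and 41.5 CPM in mixed cancer libraries. Only A06 (5 reads) and A03 (2 reads) overlapped. The log2 fold change was 4.46 (SE 0.852, adjusted p = 0.000490), and without A07 the adjusted p was 0.0525. The 3′ end of Col18a1 lies over Slc19a1 on the other strand, and Slc19a1 went the opposite way (log2 fold change -2.45, adjusted p = 0.0125). No 50-base stretch in the last 500 bases of any of the 10 transcripts was shared with another gene of the GENCODE annotation.

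Within pure cultures, 3 of the 10 tested genes were higher in cancer cells, where 9.95% of all genes passed and 5.11% passed as higher. These were Itga3 (log2 fold change 2.19, adjusted p = 0.0185), Col4a2 (5.66, adjusted p = 0.00467) and Col18a1 (6.66, adjusted p = 0.00104). Leaving out A07 left no call, leaving out the WT library A05 left 1 (Col18a1), and leaving out A02, which is not in this comparison, gave 6, of which 5 are among the 10 and the other is Lama3, which is below the filter with all 8 libraries.

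Within mixed cultures none of the 10 passed in the test of cancer against WT cells, where 6.42% of all genes did. Of the 10, 4 had an unadjusted p under 0.05 (Itga3, Lamb2, Col4a1 and Col4a2), beside 864 of all 5264 genes tested. DESeq2 called 0 of the 10. Col4a2 had no read in either mixed WT library and 131 in the mixed cancer libraries (adjusted p = 0.0632 in the edgeR test). Its pooled CPM in mixed cancer was 4.26-fold the floor of 3 reads over mixed WT, and the 95% counting interval of the ratio began at 3.42. Without A02 and A04 these values were 8.40 and 5.75. The log2 fold change of Itga3 was 1.68 (adjusted p = 0.135).

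**Figure D2:**
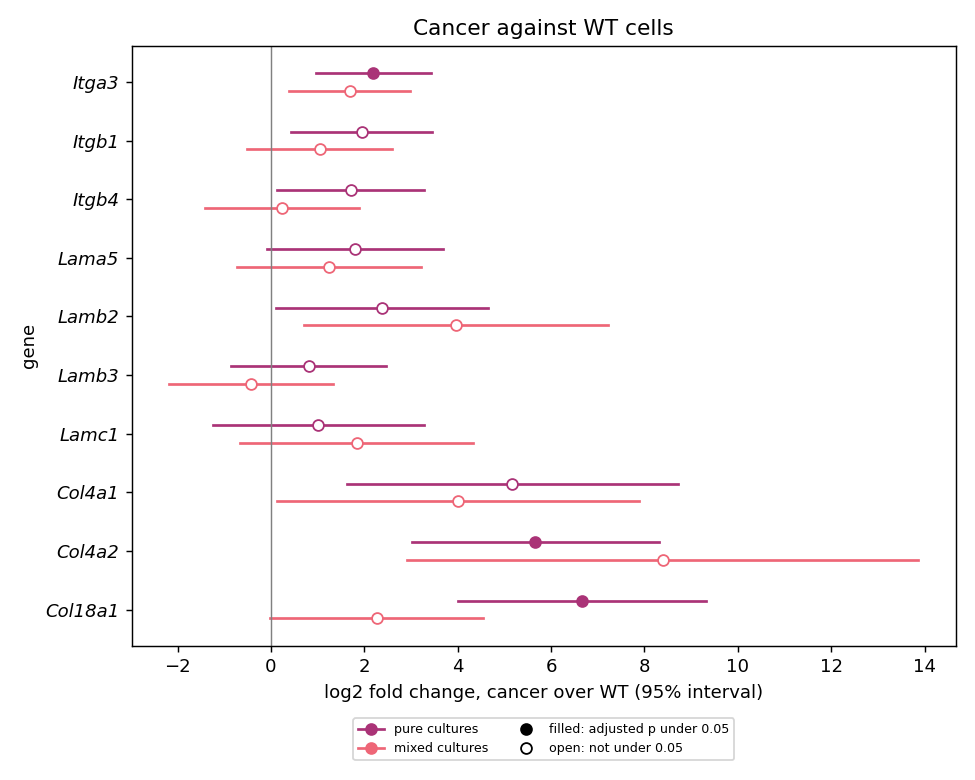
Fitted log2 fold change of cancer over WT cells with its 95% interval for the 10 tested genes, in pure and in mixed cultures. Filled points passed an adjusted p of 0.05. Itga3, Col4a2 and Col18a1 passed in pure cultures and none passed in mixed cultures, where the Col4a2 point is set against a group with no read and is no bound.

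For WT cells, mixed against pure culture, none of the 10 passed in edgeR, where 0.741% of all genes did. Of the 10, 1 (Col18a1) had an unadjusted p under 0.05, beside 509 of all 5264 genes tested. DESeq2 called 0 and gave no adjusted p for Col18a1. The log2 fold change of Col18a1 was 4.32 (SE 1.59, adjusted p = 0.309), resting on 1 read in pure WT and 5 reads in mixed WT, all 5 of them in A06. A02 had no read of it and could hold up to 39.3 CPM unseen. Over the alternatives run its adjusted p ran from 0.149 (without A02) to 0.849 (without A01).

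A06 was the highest WT library for 7 of the 10 tested genes, all but Lamb2, Lamc1 and Col4a2. The share over all genes tested was not counted, so this is a description only. Lama3, the alpha3 laminin chain gene, stood at 22.7 CPM there (10 reads, 5 barcodes) and at 0 and 0.562 CPM in pure WT. Itgb6, which pairs with alpha v and is an integrin of injured epithelium, stood at 29.5 CPM in A06 and 5.49 and 3.37 CPM in pure WT. Itgb5, another partner of alpha v, stood at 34.0 CPM in A06 and 5.49 and 3.37 CPM in pure WT. Itga7 stood at 13.6 CPM in A06 (6 reads, 2 barcodes) and 0.915 and 1.12 CPM in pure WT. Itga1 was also higher there, on 2 reads, and Col20a1 on 1 read. Itgav and Itga6, also below the filter, were not above both pure WT libraries. Itgav stood at 4.53 CPM in A06 and 4.58 and 4.50 CPM in pure WT, and Itga6 at 2.27 CPM in A06 and 0.915 and 5.62 CPM in pure WT.

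The summed epithelial marker level, though not that of every marker, was also highest in A06, and its part in these values was not tested. Of Spp1, Timp2 and Fn1, matrix genes abundant in the cancer libraries and chosen here after their values were seen, A06 held 1, 1 and 3 reads and the pure cancer library A07, with fewer reads in all, held 70, 67 and 55. Whether the WT sort held cancer cells was not tested.

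For cancer cells, mixed against pure culture, none of the 10 tested genes passed, nor did any of the 5264 genes (0% of them). None of the 10 had an unadjusted p under 0.05, beside 69 of the 5264. DESeq2 called 0 of the 10 as well. The log2 fold changes ran from -0.43 for Itgb4 to 1.23 for Lamc1. The 95% intervals were wide, from -0.92 to 1.46 for Itga3 (log2 fold change 0.27) and from -1.86 to 1.71 for Col18a1 (-0.07), so differences of a few fold were not detectable at this depth.

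The difference of the mixing effect, WT minus cancer, was tested by an interaction term in the same fit. None of the 10 passed, with 0.076% of all genes passing, and DESeq2 called 0. Of the 10, 1 (Col18a1) had an unadjusted p under 0.05, beside 383 of all 5264 genes tested. The log2 difference for Col18a1 was 4.40 (SE 1.81, adjusted p = 0.573), resting on the same few WT reads.

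**Figure D3:**
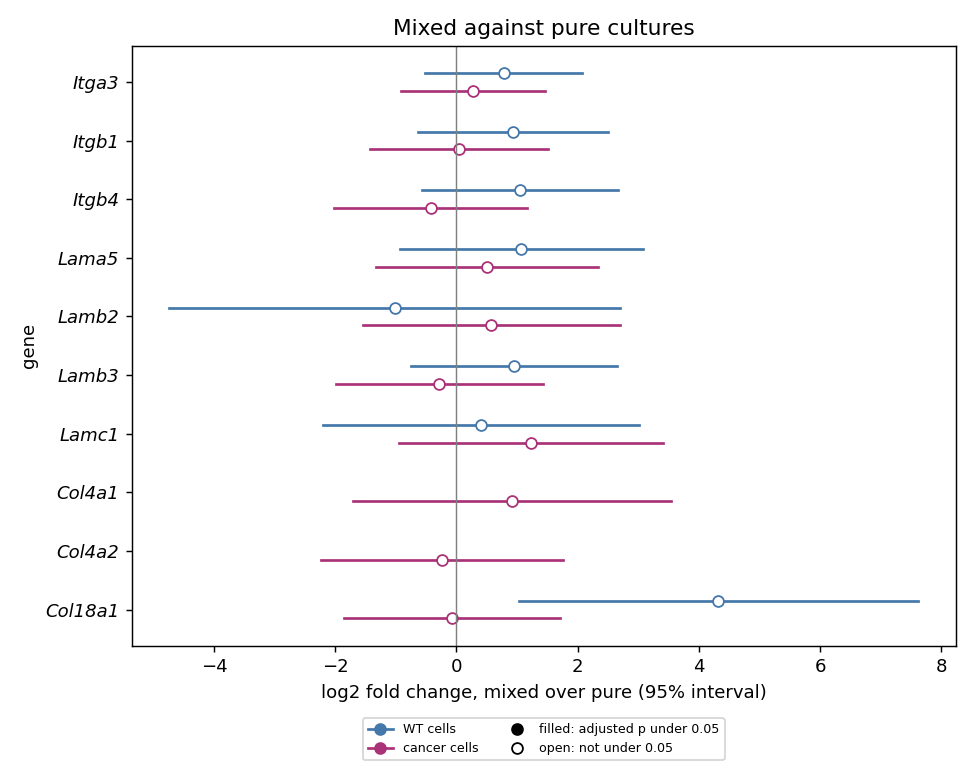
Fitted log2 fold change of mixed over pure culture with its 95% interval, for WT and for cancer cells. No point passed an adjusted p of 0.05. In WT cells the interval of Col18a1 lies above 0, and Col4a1 and Col4a2 have no WT point because neither WT group had more than 3 reads.

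The genes below the filter add 24 names: Itga1, Itga2, Itga4, Itga6, Itga7, Itga10, Itgae, Itgav, Itgb2, Itgb5, Itgb6, Itgb7, Lama3, Lamb1, Col14a1, Col16a1, Col1a1, Col20a1, Col27a1, Col28a1, Col4a3, Col4a5, Col7a1 and Col9a1. They were outside the main test and are compared here as reads pooled over the 4 WT and the 4 cancer libraries, with counting intervals that leave out the spread between libraries, and A04 gives most of the cancer reads. Itga6, the partner of beta4, had 13 WT and 17 cancer reads, a ratio of pooled CPM of 0.761 (interval 0.348 to 1.70) that was 1.15 (0.209 to 4.28) without A02 and A04.

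Lamb1, the beta1 chain gene that with gamma1 makes the common basement membrane laminins, had 3 WT and 87 cancer reads, a ratio of 16.9 (interval 5.58 to 83.4) that was 7.70 (with a wide interval, up to 49.6) without A02 and A04. Lama3 had 11 WT reads, 10 of them in A06, and 70 cancer reads, a ratio of 3.70 (1.95 to 7.75). The ratio was 43.8 (5.87 to 1943) in pure cultures, with 1 WT and 8 cancer reads, and 0.605 (0.308 to 1.32) in mixed cultures, with 10 WT and 62 cancer reads. In pure cultures Lama3 passed as higher in cancer cells where it was tested without a filter (log2 fold change 4.95, adjusted p = 0.0479) and without A02 (5.05, adjusted p = 0.0493). Itgav, the alpha v subunit, which binds fibronectin and vitronectin, was at 4.58, 4.50, 0 and 4.53 CPM in WT libraries A01, A05, A02 and A06 and at 10.5 to 46.7 CPM in cancer libraries. Its ratio was 4.34 (2.52 to 8.02), and every cancer library lay above every WT library. The 0 in A02 allows up to 39.3 CPM, however, and the value in A03 is 2 reads from 1 barcode. In pure cultures the ratio was 2.53 (0.787 to 7.12).

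Itgb5 went the other way, with 27 WT and 9 cancer reads and a ratio of 0.194 (0.0802 to 0.425). Of the 27 WT reads 15 were in A06, and without A02 and A04 the interval was 0.0394 to 1.36. In pure cultures the Itgb5 ratio was 0.912 (0.0992 to 4.10), and in mixed cultures 0.0456 (0.0157 to 0.119). Itgb6 had a ratio of 1.05 (0.638 to 1.77), with 0.912 (0.0992 to 4.10) in pure and 0.314 (0.169 to 0.619) in mixed cultures. Without A02 and A04 its mixed ratio was 0.352 (0.0386 to 1.56). Itga2, a subunit of a collagen receptor, had 5 WT and 9 cancer reads, and Itga1, of another, had 3 WT reads and no cancer read.

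The remaining collagens were hardly detected. Col1a1, the fibrillar collagen of fibroblasts, had a single read in all 8 libraries, Col7a1, the anchoring fibril collagen, had 3, and Col4a3 had 1. Col4a5 had 7 reads, all in A04, and Col9a1 had 7, all in A05. The 9 WT reads of Col27a1 came from 1 barcode, that is from as little as 1 captured molecule. Itgb2 and Itgae, the integrins of leukocytes, had 11 and 1 reads.

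**Figure D4:**
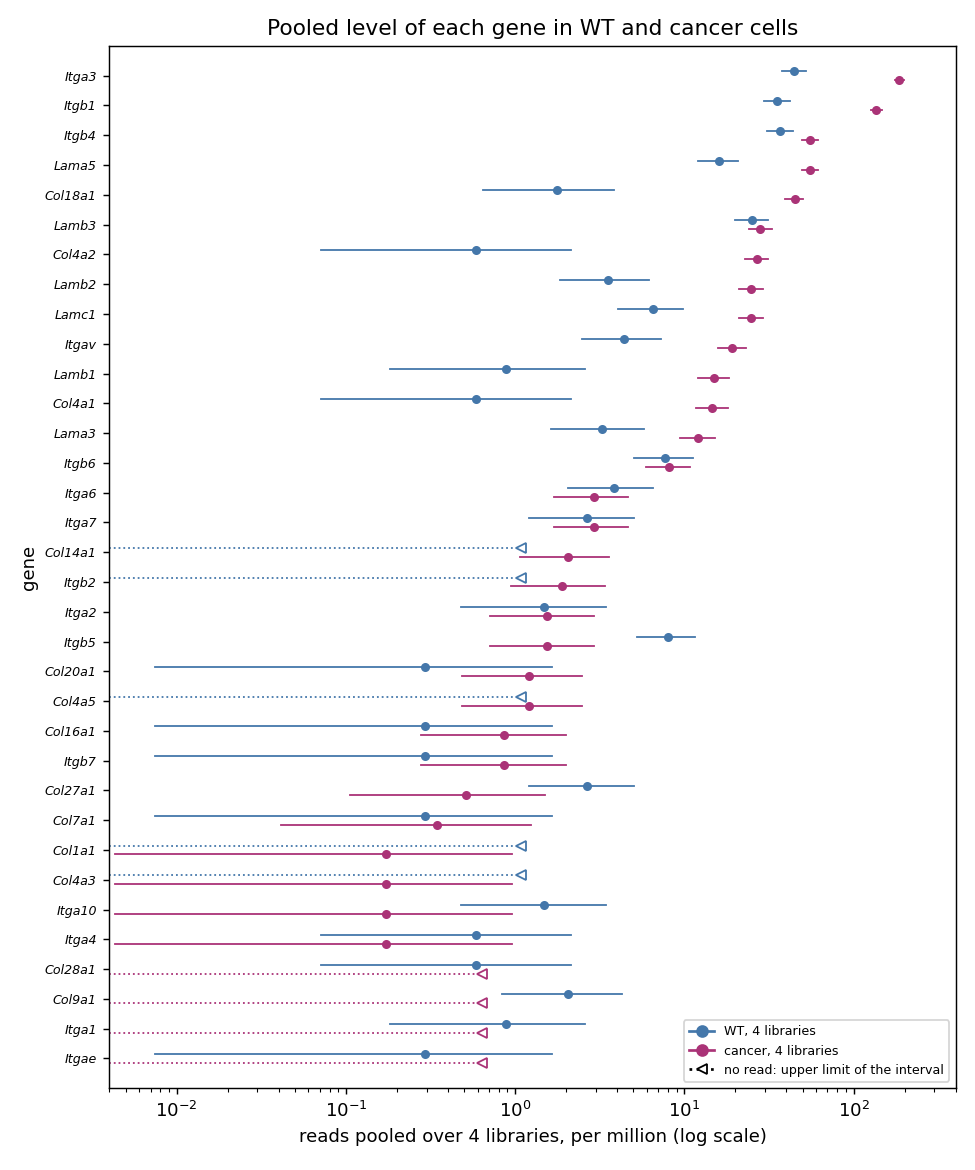
Reads pooled over the 4 WT and the 4 cancer libraries for all 34 genes, in CPM on a log axis, with 95% exact Poisson intervals that cover counting error only. An open triangle is the upper limit of a group with no read. The WT and cancer intervals are apart, with cancer higher, for Itga3, Itgb1, Itgb4, Itgav, for Lama3, Lama5, Lamb1, Lamb2, Lamc1 and for Col4a1, Col4a2 and Col18a1, and with WT higher for Itgb5 and Col9a1. The share of all genes with intervals apart was not counted, and A04 gives most of the cancer reads. Of these genes Itgb1, Itgb4, Lama5 and Lamc1 did not pass the test between libraries. In mixed cultures alone the pooled ratio was 0.618 for Itgb4 (interval 0.445 to 0.878) and 0.605 for Lama3 (0.308 to 1.32).

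Genes that work with these receptors and matrix proteins were taken from 3 lists. A listed gene that reached the filter in WT or in cancer libraries only had to differ between them to be tested. Counts and medians over the lists are therefore given as descriptions and not as support. Of 26 hemidesmosome and integrin adhesion partners, 16 were tested and 3 were higher in cancer cells (averaged over pure and mixed cultures), with 0 lower, beside 14.2% of all genes that passed and 6.8% that passed as higher. The median log2 fold change over the 16 was 0.55, against 0.04 over all genes tested. Bcam, a receptor of laminin alpha5, rose by a log2 fold change of 2.48 (adjusted p = 0.00627), Tns4, which binds the beta1 tail, by 2.55 (adjusted p = 0.00199), and Tln1, talin, which links integrins to actin, by 1.41 (adjusted p = 0.0443).

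Of 20 other basement membrane and matrix glycoproteins, 14 were analysed and 9 tested, with 3 higher and 1 lower in cancer cells and a median of 0.88. Among all genes tested 14.2% passed and 6.8% passed as higher. Fibronectin (Fn1), the ligand of alpha5 beta1 and alpha v integrins, averaged 2.21 CPM in WT and 121 CPM in cancer libraries (log2 fold change 5.53, adjusted p = 6.95e-06). Osteopontin (Spp1), a ligand of alpha v integrins, averaged 4.76 and 330.4 CPM (6.97, adjusted p = 2.15e-08). Thrombospondin 1 (Thbs1) averaged 3.95 and 55.2 CPM (3.32, adjusted p = 0.00755). Fbln1, fibulin 1 of the basement membrane, went the other way, with 27, 51, 0 and 13 reads in WT libraries A01, A05, A02 and A06 and none in any cancer library (adjusted p = 0.000731).

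Of 28 genes of collagen and matrix processing, 19 were analysed and 11 tested, of which 6 were higher and 0 lower in cancer cells. Among all genes tested 14.2% passed and 6.8% passed as higher. The median over the 11 was 2.92, or 2.77 with the 3 genes lacking reads in a group (Mmp14, Timp1 and Timp3) set to their pooled bound. The 6 were the metalloproteinase inhibitors Timp1 (0.281 CPM in WT and 48.7 CPM in cancer libraries on average), Timp2 (3.82 and 119 CPM) and Timp3 (0.703 and 62.9 CPM), the lysyl oxidase Loxl4, which cross-links collagen (0.795 and 49.1 CPM), the collagen prolyl hydroxylase subunit P4ha2 (3.33 and 29.6 CPM) and the protease matrilysin, Mmp7 (89.8 and 673 CPM). Their adjusted p ran from 2.53e-06 to 0.0365. In none of the 3 lists did a gene pass in mixed against pure culture, in WT or in cancer cells.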

How the data were processed

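RNA of cells sorted on day 3 was sequenced by CEL-Seq, a 3′-end method in which amplified copies of a molecule share a barcode. The authors aligned reads to the mm10 RefSeq transcriptome with BWA and counted them with featureCounts, discarding ambiguous reads. Read counts, barcode counts and transcript counts (estimated counts that need not be whole) were deposited without normalization. A deposited table of the authors' own comparison of mixed and pure WT (DESeq2 1.22.2) was not used. Strand use in counting is not given in the sources used here.

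From the read counts, 13420 genes were analysed, without 2 entries, a spike-in and eGFP. Genes passing filterByExpr (minimum count 10, or 23.6 CPM, in at least 2 libraries) were fitted with all 8 libraries (edgeR 4.0.16, TMM, two-sided quasi-likelihood F test), a procedure tested on simulated data. Intervals of pooled reads and their ratios, and floors, cover counting error only. Intervals of log2 fold changes come from the standard error of the fit, which takes in the spread between libraries. No fold is given where neither group had over 3 reads, or where a group had no read and the other lay under its floor. Named were genes that passed in any comparison, a list of common integrin, laminin and collagen genes, and the 5 with the highest mean CPM. Members and lists were chosen with earlier results of these data known. Itga5, Itgb8, Lama1, Col17a1, Col1a2 and Col3a1 were not analysed here, and a gene that matches the rule is not reported. Alternatives were barcode and rounded transcript counts, DESeq2 size factors, DESeq2 1.42.0, no filter, a minimum count of 50, only the 4 libraries compared, and each library left out. Leaving out A02 and A04 together was chosen after seeing the data. Gene positions are from GENCODE.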

Additional observations from a re-analysis of the deposited data

How the results depend on the processing

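For cancer against WT cells, averaged over pure and mixed cultures, 5 members passed. The number was 6 with barcode counts, transcript counts, DESeq2 size factors or no filter, and 5 with DESeq2. With barcode or transcript counts the 6 took in Itgb1 and Lama5 and left out Col4a1, which was not tested there. The number was 4 without A02 and A04, and 1 with a minimum count of 50, where 1 member was tested. With single libraries left out the number ran from 2 (without A07) to 7 (without A03). Itga3 was called in all 15 alternatives, and Col4a2 in all 14 in which it was tested. For pure cancer against pure WT the 3 became 5 without a filter (with Col4a1 and Lama3 added), 1 with a minimum count of 50, and 0 (without A07) to 6 (without A02) with single libraries left out. For mixed cancer against mixed WT the 0 became 1 (Col4a2) with barcode counts and 1 (Col4a2) without a filter, and 0 to 1 with single libraries left out (Col4a2 without A03, A05 or A07, Itga3 without A06). Mixed against pure WT, mixed against pure cancer and the interaction gave 0 in every alternative run. The causes were not tested.

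With single libraries left out, log2 fold changes of cancer against WT cells ran from -0.13 to 5.60 for Lama5 and from -0.48 to 0.52 for Lamb3. In mixed against pure cancer the ranges were -0.78 to 2.10 for Col18a1, -0.14 to 0.98 for Itga3 and -0.97 to 0.38 for Itgb4. There Col18a1 was at 0.21 with barcode counts and 0.0029 with transcript counts, and Itgb4 at 0.13 without A02 and A04. Over all tested members the sign changed in 2 of 137 values of cancer against WT cells, 3 of 140 in pure and 4 of 140 in mixed culture, 1 of 111 of the mixing effect in WT cells and 23 of 142 in cancer cells, and 5 of 106 of the interaction, in each case with an adjusted p above 0.05.

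Where a group keeps 1 library after another is left out, that library is assumed to vary like the others. No paired analysis was possible because the labels carry no replicate number shared between groups. Depth was low: in A02 the 34 genes had 6 reads, in A03 68, and 3 reads are 39.3 CPM in A02 and 15.7 CPM in A03.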
